A study of Homo sapiens with 6 samples.

Results

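Heat shock protein and BAG co-chaperone genes were followed in human HEK293 cells that express TDNC1 and in cells that express a random control RNA. Members were taken by symbol from the platform annotation of the array. The pattern covers the HSPA, HSPB, HSP90, HSPD1, HSPE1 and HSPH1 genes, the J-protein genes DNAJA, DNAJB and DNAJC, and BAG1 to BAG6. It matched 38 rows of 53617, which hold 25 symbols of the 14884 that the annotation names, and the row with the highest mean over the 6 arrays stood for each symbol. These are 12 HSPA genes, 4 with HSPB names, HSPD1, HSPH1, 5 BAG genes and 2 antisense RNAs named after DNAJC genes. A label of HSP and DNAJ families is therefore wider than the members with a named row. The annotation used names 16098 of the 53617 rows, so a missing symbol does not show that the array lacks the gene. Genes called measured below are those with a named row. No protein-coding DNAJ gene is among the named rows used here, and neither are genes with HSP90 symbols, HSPA5, HSPA8 or HSPE1, which were not analysed here. Of the 25 members, 21 are protein-coding, HSPA7 is a transcribed pseudogene, and DNAJC9-AS1, DNAJC27-AS1 and the readthrough HSPB2-C11orf52 are long noncoding RNAs.

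The cells are of the Flp-In T-REx kind, in which an inducible construct is placed at 1 site of the genome by the Flp recombinase. Both groups were grown in high glucose medium with blasticidin, and hygromycin took the place of Zeocin after transfection. Total RNA came from pools of stable clones, and whether the inducer was given is not stated in the sources used here. Each group has 3 Affymetrix Human Gene 2.0 ST arrays, called biological replicates in the labels with no word on separate cultures, so the tests measure the spread between these samples, which may be partly technical. The comparison asks which transcripts differ in the presence of TDNC1.

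Heat shock proteins are molecular chaperones that bind unfolded stretches of other proteins and let them fold, cross membranes or pass to degradation. HSP70 proteins, made from HSPA genes, work in a cycle of ATP binding and hydrolysis that J proteins start and that nucleotide exchange factors, the BAG proteins and the HSP110 proteins among them, bring to an end. Small heat shock proteins of the HSPB family hold aggregating proteins without ATP, and HSP60, made from HSPD1, folds proteins inside mitochondria. Under proteotoxic stress the transcription factor HSF1 binds heat shock elements, alternating GAA and TTC units, in the promoters of the inducible members. HEK293 cells, which carry adenoviral genes, are known for high basal levels of inducible HSP70.

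The promoters below are those of the 2 members with the largest differences, HSPA1A and HSPA1B, and of the 2 members in which a run of 3 heat shock units was found, HSPA6 and HSPD1. They come from RefSeq (GRCh38.p14), run 5' to 3' on the strand of the gene, and capitals mark every match within the stretch to adjoining GAA and TTC units (GAANNTTC or TTCNNGAA, either strand). Positions count back from the first base of the transcript. The stretches of HSPA1A, HSPA1B and HSPA6 end at position -1, and that of HSPD1 covers positions -250 to -101 before the downstream of its listed start sites.
HSPA1A, chr6:31815393-31815542, plus strand: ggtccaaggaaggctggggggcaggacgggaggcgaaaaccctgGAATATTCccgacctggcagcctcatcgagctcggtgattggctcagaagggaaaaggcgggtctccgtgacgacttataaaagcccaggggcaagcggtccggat
HSPA1B, chr6:31827588-31827737, plus strand: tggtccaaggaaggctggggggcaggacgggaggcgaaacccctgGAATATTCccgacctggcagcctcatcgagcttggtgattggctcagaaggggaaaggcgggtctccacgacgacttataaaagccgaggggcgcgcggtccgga
HSPA6, chr1:161524390-161524539, plus strand: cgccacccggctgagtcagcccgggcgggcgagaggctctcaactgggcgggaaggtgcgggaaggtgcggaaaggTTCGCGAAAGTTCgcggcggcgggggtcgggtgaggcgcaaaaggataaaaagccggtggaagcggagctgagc
HSPD1, chr2:197499941-197500090, minus strand: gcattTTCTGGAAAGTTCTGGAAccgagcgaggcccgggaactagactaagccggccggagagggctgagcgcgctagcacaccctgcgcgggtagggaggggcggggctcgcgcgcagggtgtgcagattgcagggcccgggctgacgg

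HSPA1A and HSPA1B encode the same inducible HSP70 from neighbouring genes, and their promoters are near copies. Over 299 bases compared without gaps, 277 were identical (92.6%). Each holds 1 match with 2 units, at -106 to -99 in HSPA1A and at -105 to -98 in HSPA1B. HSPA1L, the HSP70 gene best known from testis, is transcribed away from HSPA1A, with start sites 260 bases apart. Its window of 300 bases (250 before the start and 50 after) shares 241 bases with that of HSPA1A, and the match at chr6:31815437-31815444 lies in both. A run of 3 units (GAANNTTCNNGAA or TTCNNGAANNTTC) was found for HSPA6, at -74 to -62, and for HSPD1, where an overlapping pair of such runs covers -245 to -228. The 20 members with a window have 26 windows, of which these 2 held 3 units, against 0.49% of all 35116 windows. Matches with 2 units, a search added after the data were seen, were in 11 of the 26 member windows and in 13.5% of all windows. These 11 are not separate sites, since HSPA1A and HSPA1L share a match and HSPA1B holds a near copy of it. The members with a match include HSPA9, whose log2 change was 0.02, as well as HSPA1A, and do not include HSPH1 or BAG3. No relation between matches and expression was tested. A match is a run of letters and no evidence that a factor binds there.

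No member passed the test. Of all 53617 rows, 1 was called by limma at a Benjamini-Hochberg adjusted p under 0.05 (0.00187%), the long noncoding RNA LOC646736. It was higher in TDNC1 by 6.06 log2 units, at 9.71, 9.85 and 9.65 against 3.56, 3.56 and 3.90. The cause of that difference was not tested. Among the members the smallest limma adjusted p was 0.631. At an unadjusted p under 0.05, 6 of the 25 members (24%) were lower in TDNC1 and 1 was higher. The same limits held 3.96% of all rows lower and 3.74% higher, and 2.56% and 4.59% of the 14884 named symbols. The lower ones were HSPA1A, HSPA1B, HSPA1L, HSPH1, BAG3 and BAG2, and the higher one was HSPA12A. HSPA1A and HSPA1B are not independent, and counted as 1 they left 5 of 24 members lower (20.8%). In these same 7 members the groups did not overlap, 6 lower and 1 higher, where 6.70% of all rows were lower and 6.48% higher without overlap. The count at an unadjusted p under 0.05 was 1 without TDNC1 replicate 1, 3 without TDNC1 replicate 2, and 4 without control replicate 1 or control replicate 2, against 7 with all arrays.

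Among the TDNC1 arrays the third was unlike the first and second, in the chaperone rows as in the whole table. Over all rows its median absolute difference was 0.19 and 0.18 from TDNC1 replicates 1 and 2. It was 0.14 from control replicate 3 and 0.16 from each of the other controls. Over the 25 members it was 0.22 and 0.18 from TDNC1 replicates 1 and 2 and 0.080 from control replicate 3, while TDNC1 replicates 1 and 2 differed by 0.070 from each other. Control replicate 3 likewise lay nearer TDNC1 replicate 3 than its own group. It was 0.16 from each of control replicates 1 and 2 over all rows, and 0.14 and 0.13 over the members. The likeness thus involves both arrays numbered 3, and its cause was not tested. In 16 of 25 members TDNC1 replicate 3 lay nearer the control mean than the mean of the other TDNC1 arrays did. The same count was not made over all rows, so it shows nothing particular to the members. Values without it, which set 2 arrays against 3, are given beside the results that rest on it. The array was singled out by its distances, in part over these same members. Where it lay nearest the controls, leaving it out enlarges the difference by construction. Such values show how far a result rests on that array and are no further support for a difference. Then 23 rows of the table passed (0.0429%), none of them a member, and 8 members had an unadjusted p under 0.05, 6 lower and 2 higher. Of all rows, 7.62% were then lower and 6.87% higher at that limit.

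The inducible HSP70 genes had the largest differences. HSPA1A stood at 11.47, 11.51 and 12.20 on the log2 scale in TDNC1 replicates 1 to 3 and at 12.30, 12.36 and 12.30 in the controls. All 3 TDNC1 values were lower than every control, the third by little. The means were 11.73 ± 0.41 (SD, n = 3) and 12.32 ± 0.03 (SD, n = 3), a log2 change of -0.59 (SE 0.20, 95% interval -1.05 to -0.13), or 1.51-fold lower. HSPA1B, its near copy, stood at 11.71, 11.78 and 12.44 against 12.59, 12.60 and 12.55, a change of -0.61 (SE 0.19, 95% interval -1.06 to -0.15). The pattern is the same in both, with TDNC1 replicates 1 and 2 far below the controls and TDNC1 replicate 3 just below them. Against the control mean the TDNC1 arrays lay at -0.85, -0.81 and -0.12 for HSPA1A and at -0.87, -0.80 and -0.14 for HSPA1B. Neither passed (limma, adjusted p = 0.631). Without TDNC1 replicate 3 the changes were -0.83 (SE 0.09) and -0.84 (SE 0.09), or 1.78-fold and 1.79-fold lower, and the adjusted p was 0.0822 for both. Leaving out either other TDNC1 array made the changes smaller. HSPA1A had -0.46 without TDNC1 replicate 1 (limma adjusted p = 0.913) and -0.49 without TDNC1 replicate 2 (adjusted p = 0.919), and HSPA1B had -0.47 and -0.51.

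HSPA1L had lower values as well. Its row read 5.65, 5.59 and 5.89 in TDNC1 and 6.28, 5.98 and 6.17 in the controls, a log2 change of -0.43 (SE 0.13, 95% interval -0.73 to -0.14). The groups did not overlap, and the distance between TDNC1 replicate 3 and the lowest control was small. Without that array the change was -0.52 (SE 0.12, limma adjusted p = 0.166). It was -0.40 without TDNC1 replicate 1 and -0.37 without TDNC1 replicate 2. With all arrays it had the smallest unadjusted p of all members, 0.0106 in limma, rank 866 among the 53617 rows. Its coding sequence is close to that of HSPA1A, and whether signal from the inducible genes reaches its probes was not tested.

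**Figure D1:**
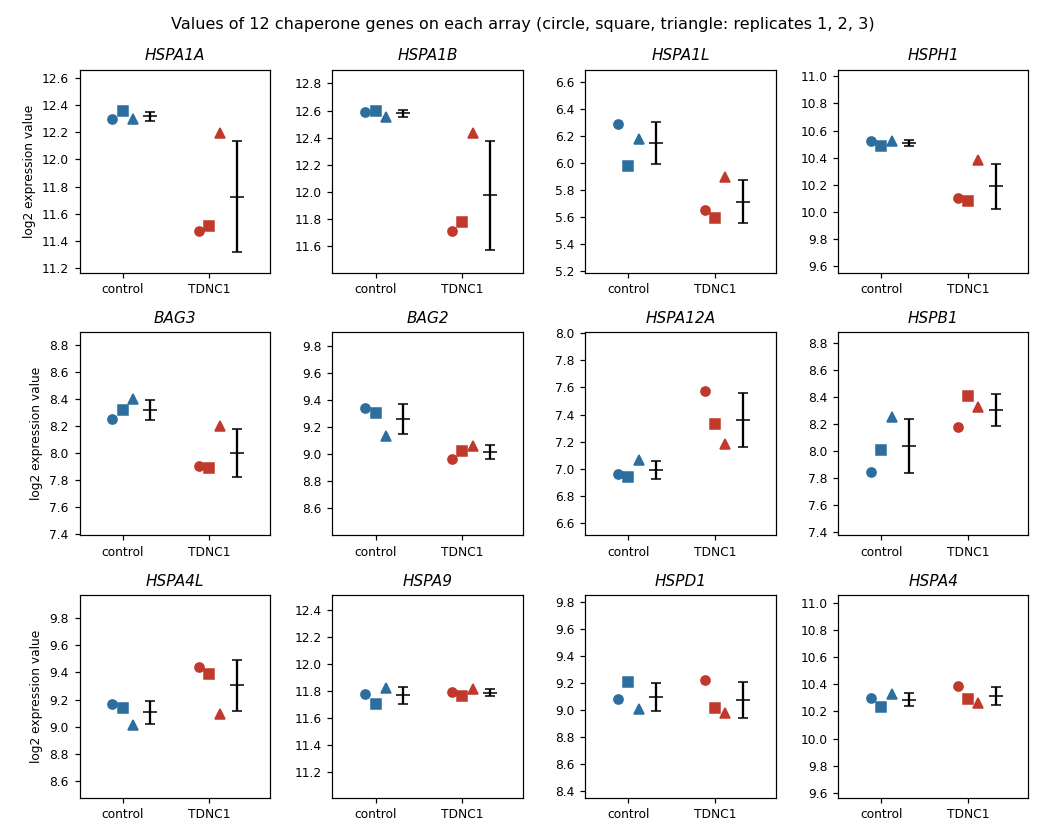
Log2 expression value (vertical axes, 1.5 log2 units high in each panel) of 12 members on the 3 control arrays (blue) and the 3 TDNC1 arrays (red), with circles, squares and triangles for replicates 1, 2 and 3 and bars for the mean ± SD. In HSPA1A, HSPA1B, HSPH1 and BAG3 the red circle and square lie well below all blue points and the red triangle just below them, whereas HSPA9, HSPD1 and HSPA4 overlap.

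The array carries several rows for these genes, which were compared to see whether the choice of row matters. HSPA1A, HSPA1B and HSPA1L have 5 rows each, and 3 rows of HSPA1A hold identical values, as do 3 of HSPA1L. The 15 rows thus hold 11 distinct sets of values, and in all 15 every TDNC1 array lay below every control. The log2 change ran from -0.65 to -0.59 over the rows of HSPA1A, from -0.68 to -0.56 over those of HSPA1B and from -0.43 to -0.31 over those of HSPA1L. The rows are not independent measurements, since near-identical genes can share probes.

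**Figure D2:**
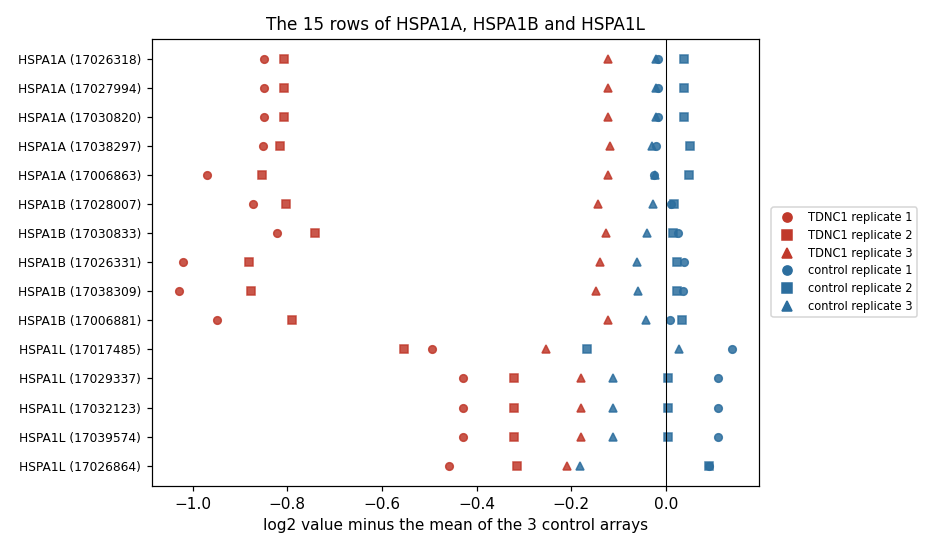
Each array's log2 value minus the mean of the 3 control arrays (horizontal axis) for the 15 rows of HSPA1A, HSPA1B and HSPA1L, named with their row numbers, with red for TDNC1, blue for the controls and circles, squares and triangles for replicates 1, 2 and 3. In every row TDNC1 replicates 1 and 2 lie farthest to the left and TDNC1 replicate 3 lies between them and the controls.

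The other HSPA genes went both ways and were closer to 0. HSPA12A, a distant relative of HSP70, was the 1 member with higher values and no overlap, at 7.58, 7.33 and 7.18 in TDNC1 against 6.96, 6.94 and 7.07, a log2 change of 0.37 (SE 0.12, 95% interval 0.09 to 0.66, limma adjusted p = 0.631). Every TDNC1 array was above every control, with TDNC1 replicate 3 nearest to them, and without that array the change was 0.46 (limma adjusted p = 0.183). It was 0.27 without TDNC1 replicate 1 and 0.39 without TDNC1 replicate 2. Its dimmer row did not share this, with a change of -0.01, and the mean of both rows gave 0.18. HSPA4L, an HSP110-type exchange factor, stood at 9.44, 9.39 and 9.09 against 9.17, 9.14 and 9.01, a change of 0.20 (SE 0.12). TDNC1 replicates 1 and 2 were above all controls and TDNC1 replicate 3 was among them, and without that array the change was 0.31 (limma adjusted p = 0.251). HSPA14, a ribosome-associated HSP70, had 0.14 (SE 0.09), HSPA4, the broadly expressed HSP110-type gene, 0.03 (SE 0.09) and HSPA12B 0.01 (SE 0.10). HSPA9, the mitochondrial HSP70 mortalin, was the steadiest, at 11.79, 11.76 and 11.82 against 11.78, 11.70 and 11.82. Its change was 0.02 (95% interval -0.18 to 0.22), so a difference as large as that of HSPA1A lies outside its interval. HSPA2, a testis-enriched HSP70, had -0.16 (SE 0.16). HSPA6, a strictly heat-induced HSP70, had -0.15 (SE 0.15), and its pseudogene neighbour HSPA7 -0.26 (SE 0.19). These last 2 rows lay below the median of all rows (44.4% and 38.5% of rows were dimmer), where array values flatten, so a true difference can be understated. The groups of HSPA6 and of HSPA7 overlapped.

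HSPH1 encodes HSP110, the heat-induced exchange factor and disaggregase partner of HSP70. It stood at 10.10, 10.08 and 10.38 in TDNC1 and at 10.52, 10.49 and 10.52 in the controls. The controls lay within a narrow band and all TDNC1 arrays below it, the third by the least. The change was -0.32 (SE 0.11, 95% interval -0.58 to -0.06), and -0.42 (SE 0.09) without TDNC1 replicate 3 (limma adjusted p = 0.139). It was -0.28 without TDNC1 replicate 1 and -0.27 without TDNC1 replicate 2. HSPD1, which encodes HSP60, had overlapping groups, at 9.23, 9.02 and 8.98 against 9.08, 9.21 and 9.01, a change of -0.02 (95% interval -0.28 to 0.23). That value changed sign when any of TDNC1 replicate 2, TDNC1 replicate 3 or control replicate 2 was left out.

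BAG proteins bind HSP70 and release its nucleotide. Of the 5 BAG genes measured, 4 had fitted changes below 0, as had 28433 of all 53617 rows. BAG3, the heat-induced member that directs HSP70 clients to autophagy, stood at 7.90, 7.89 and 8.20 in TDNC1 and at 8.25, 8.32 and 8.40 in the controls. Its change was -0.32 (SE 0.12, 95% interval -0.60 to -0.05), again with TDNC1 replicate 3 just below the lowest control. Without that array it was -0.43 (SE 0.09, limma adjusted p = 0.157), and it was -0.28 without TDNC1 replicate 1 and -0.27 without TDNC1 replicate 2. BAG2, which inhibits the ubiquitin ligase CHIP, stood at 8.96, 9.02 and 9.06 against 9.34, 9.30 and 9.13, a change of -0.24 (SE 0.10, adjusted p = 0.646). Here the TDNC1 arrays lay close together, and leaving out the third moved the change only to -0.27. BAG1 had -0.13 (SE 0.10), BAG5 -0.05 (SE 0.09) and BAG4 0.08 (SE 0.10), and their groups overlapped.

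The 3 small heat shock protein genes and 1 readthrough RNA with HSPB names had fitted changes above 0, but every interval included 0 and the groups overlapped in each. HSPB1, which encodes HSP27, an abundant and heat-induced small chaperone, stood at 8.17, 8.41 and 8.33 in TDNC1 and at 7.85, 8.01 and 8.25 in the controls. Control replicate 3 lay above TDNC1 replicate 1, so the groups overlapped, and the change was 0.27 (SE 0.13, 95% interval -0.04 to 0.57, limma adjusted p = 0.661). HSPB3 had 0.14 (SE 0.17) and HSPB8, the partner of BAG3, 0.05 (SE 0.11), and in both TDNC1 replicate 3 lay 0.04 below the control mean. HSPB2-C11orf52, a readthrough RNA rather than a chaperone transcript, stood at 5.01, 5.03 and 5.20 against 5.06, 4.92 and 4.84, a change of 0.14 (SE 0.10). All 3 are dim, with 32.7%, 44.9% and 46.9% of all rows below them.

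**Figure D3:**
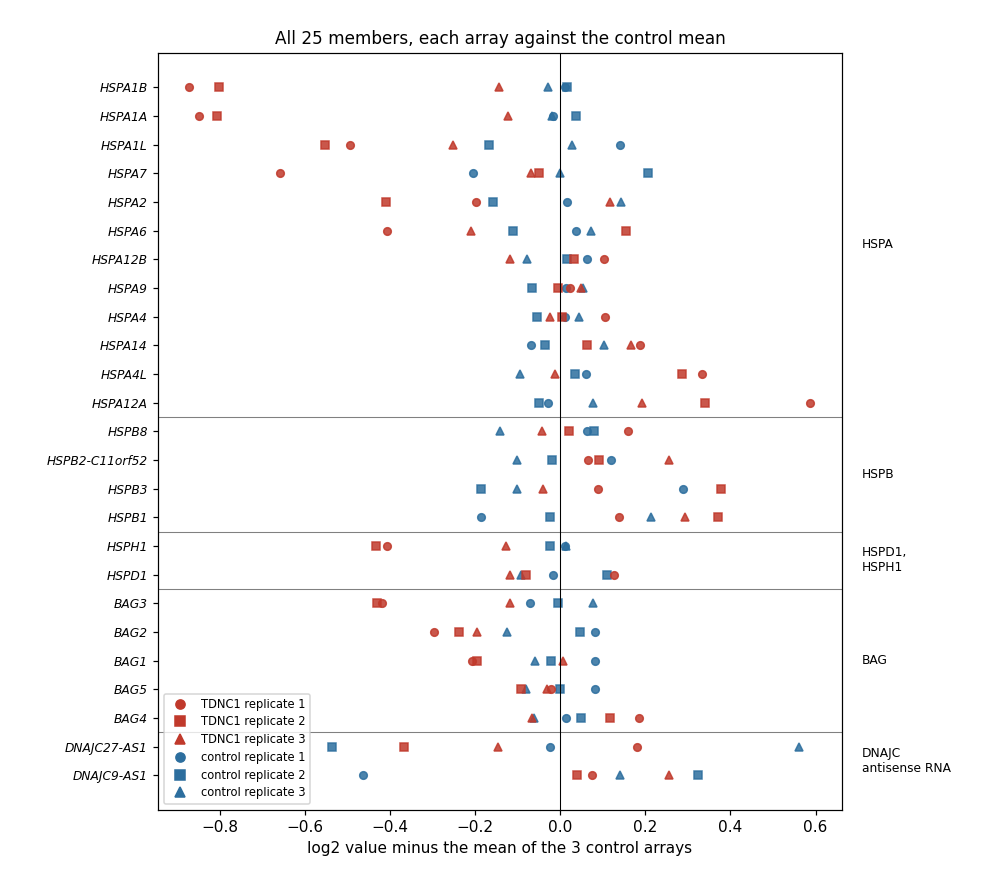
Each array's log2 value minus the mean of the 3 control arrays (horizontal axis) for all 25 members, grouped by family. HSPD1 and HSPH1 are shown together without being a family. Red marks TDNC1 and blue the controls, with circles, squares and triangles for replicates 1, 2 and 3. The points farthest from 0 are TDNC1 replicates 1 and 2 in HSPA1A and HSPA1B, between -0.87 and -0.80.

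The antisense RNAs named after DNAJC genes say nothing about J proteins themselves and were the most variable members. DNAJC9-AS1 stood at 5.23, 5.20 and 5.42 in TDNC1 and at 4.70, 5.48 and 5.30 in the controls, a change of 0.12 (95% interval -0.36 to 0.60). DNAJC27-AS1 stood at 4.59, 4.04 and 4.26 against 4.38, 3.87 and 4.97, a change of -0.11 (95% interval -0.77 to 0.55). The controls alone span the full range of the TDNC1 arrays in both. A change as large as that of HSPA1A lies inside the interval of DNAJC27-AS1 and could not be told from 0 there.

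Families were set side by side by their medians and counts, with no test of a family. The median log2 change was -0.07 over 12 HSPA genes (6 above and 6 below 0), the HSP110-type genes HSPA4 and HSPA4L among them. It was 0.14 over 4 HSPB rows (4 above) and -0.13 over 5 BAG genes (4 below). HSPD1 and HSPH1 are not a family, and their changes were -0.02 and -0.32. The median was -0.02 over all 25 members, with 12 above and 13 below 0, and -0.01 over all rows. So the members as a whole were centred near 0, and the lower values sat in a few genes. The signs of these family medians were the same with quantile normalization and with arrays centred on their medians. Of 16 members listed in textbooks as heat-induced, 9 were measured, and their median change was -0.26, with 7 below 0. At an unadjusted p under 0.05 in limma 4 of them were lower, as were 3.96% of all rows and 2.56% of named symbols. The rest of those below 0 were HSPD1, HSPA6 and HSPA7, whose groups overlapped. With HSPA1A and HSPA1B counted as 1 gene, the median was -0.21 and 3 of 8 were lower at that limit. Without TDNC1 replicate 3 the median of the 9 was -0.35, and -0.24 with HSPA1A and HSPA1B counted as 1. Again 3 of 8 were lower at that limit, and 1 was higher (HSPA4L). In that fit 7.62% of all rows were lower and 6.87% higher. HSPA1A, HSPA1B, HSPH1 and BAG3 were the lower ones, while HSPB1 and HSPA4L had changes above 0 and HSPD1 was near 0. The measured heat-induced genes thus did not all share a sign. The mean level of the 9 genes was 8.51, 8.65 and 8.78 in TDNC1 and 8.81, 8.88 and 8.86 in the controls. HSPA1A and HSPA1B, the members with the largest differences, each entered this mean separately. The remaining 16 members had a median of 0.02.

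**Figure D4:**
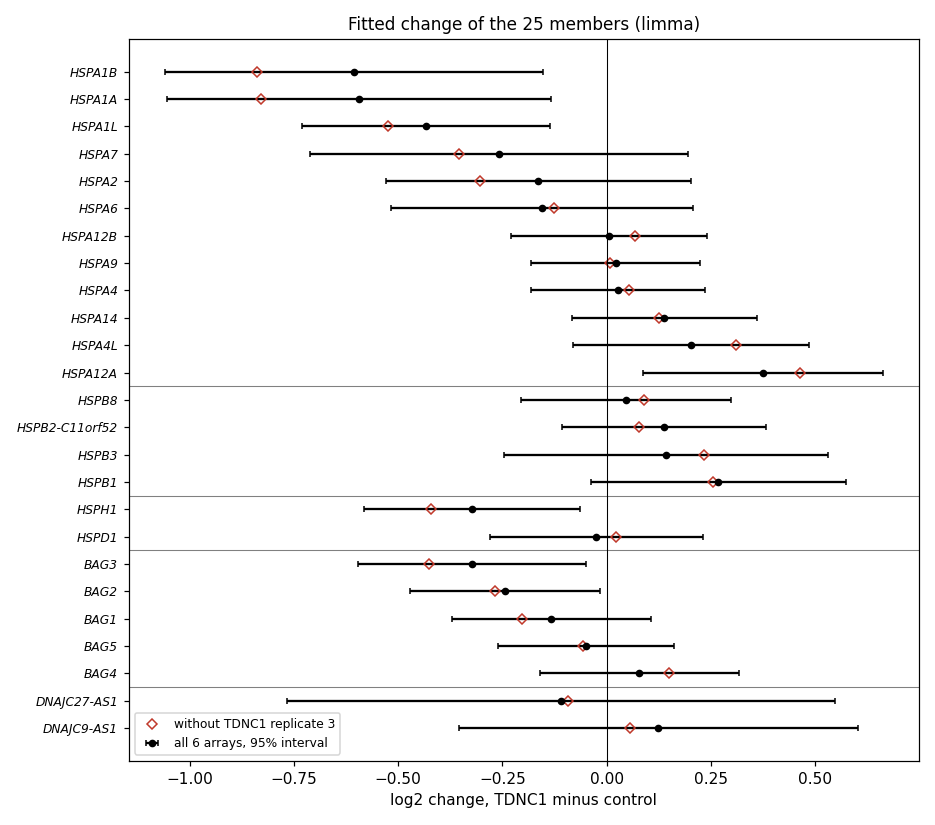
Fitted log2 change, TDNC1 minus control (horizontal axis), of the 25 members. Black shows all 6 arrays with the 95% interval from limma, and open red diamonds the fit without TDNC1 replicate 3. Lines separate the families, with HSPD1 and HSPH1 kept together. Intervals of 7 members exclude 0, and leaving out the array moves HSPA1A from -0.59 to -0.83 and leaves HSPA9 near 0.

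None of the other listed genes of the chaperone system passed (limma), though some had differences as large as those of several members. The heat shock factor HSF1 had a log2 change of -0.24 (SE 0.13), with 7.36, 7.51 and 7.72 in TDNC1 against 7.62, 7.75 and 7.92. Its groups overlapped, with TDNC1 replicate 3 again above the other TDNC1 arrays. HSBP1, which binds heat shock factors, had 0.14 (SE 0.08), and 0 of 4 genes of this list had an unadjusted p under 0.05. It was the 1 gene of the list higher without overlap, where 6.48% of all rows were. In a list of 11 that holds HSP90 co-chaperones together with TRAP1, the mitochondrial HSP90, 0 did, and the median was -0.01. PTGES3, the co-chaperone p23, had -0.19 (SE 0.09) and CHORDC1 -0.26 (SE 0.13). In this list 1 gene was lower without overlap (PTGES3) and 1 higher (NUDC, 0.19, SE 0.10), against the 6.70% and 6.48% of all rows given above, and NUDC was named after its values were seen. In 5 HSP70 partners the median was -0.02, and 0 had an unadjusted p under 0.05. HYOU1, the exchange factor of the endoplasmic reticulum, had -0.19 (SE 0.16), at 8.94, 8.85 and 9.44 against 9.30, 9.17 and 9.33. SEC63, a J protein of its membrane, had 0.18 (SE 0.16), at 9.70, 9.66 and 9.18 against 9.47, 9.22 and 9.31. In both, TDNC1 replicate 3 lay on the other side of the controls from the other TDNC1 arrays. Of 15 listed subunits of the TRiC chaperonin and prefoldin, 6 of prefoldin were measured, with a median of 0.04, led by PFDN4 with 0.11 and PFDN2 with 0.08. Folding and stress genes of the endoplasmic reticulum had 1 of 9 at an unadjusted p under 0.05 in limma, the stress sensor gene ERN1. Of all rows, 3.74% were higher at that limit, and 4.59% of named symbols. ERN1 had 0.36 (SE 0.15), at 6.59, 6.58 and 6.15 against 5.91, 6.17 and 6.17. Its groups overlapped, with TDNC1 replicate 3 among the controls and the other TDNC1 arrays above them. In this list 1 of 9 was higher without overlap, CANX with 0.16 (SE 0.10), against the same 6.48% of all rows. CRELD2, a secreted folding factor, had -0.42 (SE 0.19), at 6.06, 6.06 and 6.71 against 6.62, 6.65 and 6.82. Here too TDNC1 replicate 3 sat among the controls and the other TDNC1 arrays below them. Among 5 genes of mitochondrial protein quality control CLPX had 0.20 (SE 0.10) and AFG3L2 0.12 (SE 0.09), and 0 had an unadjusted p under 0.05.

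Markers were checked for the cell type. VIM, KRT8, KRT18, PAX2 and LIN28B, which HEK293 cells are known to express, had mean levels from 6.12 to 9.26. The fibroblast genes DCN and LUM had mean levels of 2.26 and 3.61, where the lower quartiles of the arrays ran from 3.77 to 3.84, and CD14, the blood marker measured, had 4.87. Of the epithelial genes, EPCAM was bright, at 9.69 to 10.04 over the arrays. Over the 3 epithelial genes measured, the mean level was 7.78 to 7.82 in TDNC1 and 7.71 to 7.74 in the controls, and 1 of 3, CLDN4, had an unadjusted p under 0.05 (log2 change 0.26). PAX2, a kidney developmental factor, had 0.41 (SE 0.12) and was the 1 of 5 HEK293 genes with such a p. Of all rows, 3.74% were higher at that limit. Neither CLDN4 nor PAX2 passed after adjustment, and their part in the chaperone values was not tested. In bulk RNA, fewer cells with a transcript and less of it per cell cannot be told apart.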

How the data were processed

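Expression of total RNA was measured on 6 arrays, 3 per group, grouped by sample titles. The deposited values are log2 values made by the authors, whose processing notes name RMA and Affymetrix Power Tools per the labels, and the log2 scale was judged from their range. Version, annotation and build: not given in the sources used here. RMA equalises the arrays, so a shift of most transcripts would be removed, and it compresses differences of dim rows. Arrays have no read depth, and their number limits the precision.

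The groups were compared with lmFit and eBayes of limma (version 3.58.1, R 4.3.3; two-sided, no covariate) over all 53617 rows, with Benjamini-Hochberg adjustment over all of them and a threshold of 0.05. The fit was tested on simulated data. The 25 members all had an entrez identifier in the GRCh38.p14 gene table. Members, gene lists and tests were chosen with earlier results of these data known. Values on every array are given for HSPA1A, HSPA1B, HSPA9, HSPB1, HSPD1, HSPH1 and BAG3 and for the members of each family with the smallest p (4 of HSPA, 2 of the others), and HSPA4L was added after their values were seen. Of each other list, the 2 genes with the smallest p are named, and NUDC and CANX were added after their values were seen. Promoters are RefSeq windows.

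Alternatives were leaving out each array, the replicate number as a block, quantile normalization, centring, a filter on dim rows, the mean of a gene's rows, a trended and robust prior, array weights and, chosen after seeing the data, leaving out both arrays numbered 3. Protein sequences were not used here.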

Additional observations from a re-analysis of the deposited data

How the results depend on the processing

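No member was called with all arrays or under any of the 14 alternatives (limma, adjusted p under 0.05), and the smallest adjusted p of the 13 members followed through them was 0.0822, for HSPA1A and HSPA1B without TDNC1 replicate 3. The number of members at an unadjusted p under 0.05, 7 with all arrays, ran from 1 (without TDNC1 replicate 1) to 8 (without TDNC1 replicate 3) when single arrays were left out. The number without overlap between the groups, 7, ran from 7 to 11 in those fits and was 14 with both arrays numbered 3 left out. Fewer arrays make an overlap less likely by construction. The median over all members, -0.02, was 0.0189 with both arrays numbered 3 left out. With the replicate number as a block 6 members had an unadjusted p under 0.05 and 0 were called. The labels state no pairing of the numbers, and the main fit used none. Deviations of arrays with the same number correlated at 0.04, -0.001 and 0.05 over all rows. TDNC1 replicate 2 correlated best with control replicate 1, whereas TDNC1 replicates 1 and 3 correlated best with the control of their own number. Correlations this weak cannot decide whether the numbers are pairs. Log2 changes near 0 switched sign when single arrays were left out, and the cause was not tested. HSPD1 ran from -0.0999 to 0.0302, HSPA9 from -0.0121 to 0.0483, DNAJC9-AS1 from -0.11 to 0.28 and DNAJC27-AS1 from -0.38 to 0.17, and DNAJC27-AS1 was 0.19 without both arrays numbered 3. HSPA1A, HSPA1B, HSPA1L, HSPH1, BAG2 and BAG3 stayed below 0 and HSPA12A, HSPB1 and HSPB2-C11orf52 above 0 in every alternative that could be run. The filter on dim rows kept 19 members and has no value for DNAJC27-AS1 or HSPB2-C11orf52.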
